A study of Arabidopsis thaliana with 8 samples.

Results

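*SAUR9* (AT4G36110), *SAUR10* (AT2G18010), *SAUR15* (AT4G38850, also known as *SAUR-AC1*) and *SAUR46* (AT2G37030) are 4 *Arabidopsis thaliana* genes of the *SAUR* (small auxin up RNA) family. They were chosen for the clearest responses to brassinolide (BL) on these same arrays among *SAUR* genes regarded as dispersed in the genome. They are 4 of 28 *SAUR* genes with a probe set named here, of 76 *SAUR* loci listed and of 22746 probe sets tested. The term dispersed did not hold for all 4, since *SAUR15* stands between *SAUR14* and *SAUR16* in gene order.

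The experiment asked how seedlings with raised auxin respond to brassinosteroids (BR). It had 4 groups of 2 Affymetrix ATH1 arrays, all of the Columbia background: BR-treated *yucca*, mock-treated *yucca*, BR-treated WT and mock-treated WT. BR treatment was immersion in liquid medium holding 1 μM BL, the most active BR, for 2.5 h, and mock treatment was medium alone for the same time. Seedlings are 10 d old by the sample labels and 9 d old by the methods of the study. The *yucca* mutant overproduces auxin throughout its development, so the genotype comparison is one of plants grown with different auxin levels and not of a short auxin treatment. Whole-seedling RNA does not separate a change in RNA per cell from a change in the number of cells that hold it. The study counts 2 independent biological replicates per group. Each standard error and p-value below rests on the spread between the 2 arrays of a group, pooled over the 4 groups. The limma fit then draws this spread toward that of the other probe sets.

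SAUR proteins are small and short-lived, and many of their genes are among the earliest to be induced by auxin. Several of them are known to inhibit PP2C.D phosphatases, which otherwise switch off the plasma membrane H+-ATPases, and the acidified wall then loosens and the cell expands. BL binds the receptor kinase BRI1 and acts through the transcription factors BZR1 and BES1, and many *SAUR* genes are known targets of both hormones. *SAUR15* is one of the best-known auxin-induced transcripts of *Arabidopsis*, the protein of *SAUR9* is among those found to bind PP2C.D phosphatases, and *SAUR10* is known as a target of the MADS-domain protein FRUITFULL in stems.

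Levels are probe set intensities in arbitrary units on a linear scale, as deposited by the authors, and differences are on the log2 scale. Probe sets differ in how strongly they bind, so levels are compared between groups for 1 gene and not between genes. Arrays of a genotype appear to have been normalized together and separately from those of the other genotype. The median intensity was 44.7 to 46.4 on the *yucca* arrays and 86.8 to 90.1 on the WT arrays. Deposited levels are therefore compared within a genotype, and levels of *yucca* and WT after quantile normalization over all 8 arrays, which gives every array the same distribution. The bacterial control probe sets, which have no target in plant RNA, give a sense of the floor, with medians of 6.12 on *yucca* BR arrays, 6.21 on *yucca* mock arrays, 11.0 on WT BR arrays and 10.7 on WT mock arrays.

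In both genotypes the intensities of *SAUR9*, *SAUR10* and *SAUR15* were higher after BR than after mock treatment, and those of *SAUR46* were lower. These responses are the values that chose the genes, so they are a description and carry no test. *SAUR9* had intensities of 403 and 436 on the *yucca* BR arrays, against 68.2 and 54.9 on the *yucca* mock arrays. In WT its intensities were 213 and 181 after BR, against 30.2 and 24.2 after mock treatment. Its log2 response was 2.78 ± 0.15 (SE) in *yucca* and 2.86 ± 0.15 in WT, or 6.85-fold and 7.26-fold. Of 22746 probe sets, *SAUR9* had the highest response in WT and stood at position 2 in *yucca*.

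*SAUR10* lay close to the level of the bacterial controls in mock-treated seedlings. It had 52.9 and 60.0 on the *yucca* BR arrays, against 8.35 and 9.99 on the *yucca* mock arrays. On WT arrays it had 96.8 and 73.4 after BR, against 18.5 and 17.1 after mock treatment. Of 27 bacterial control probe sets, 3 and 2 lay at or above *SAUR10* on the *yucca* mock arrays and 1 on each WT mock array, so its mock level is poorly bounded from below. The same holds less strongly for *SAUR9* after mock treatment and *SAUR46* after BR in WT, where 1 control lay at or above the gene on 1 of the 2 arrays. The log2 response was 2.62 ± 0.15 in *yucca*, or 6.17-fold, and 2.25 ± 0.15 in WT, or 4.75-fold, and stood at position 3 in both genotypes. With 16 added to each intensity, which damps the response of dim probe sets, it was 1.52 in *yucca* and 1.57 in WT, and the order of the genotypes turned.

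*SAUR15* behaved like *SAUR10* in direction, from a mock level well above the bacterial controls. Its intensities were 225 and 243 in BR-treated *yucca*, against 49.4 and 37.2 in mock-treated *yucca*, and 285 and 225 in BR-treated WT, against 60.4 and 57.2 in mock-treated WT. The log2 response was 2.45 ± 0.15 in *yucca* and 2.11 ± 0.15 in WT, or 5.47-fold and 4.31-fold. It stood at position 4 in *yucca* and at position 7 in WT. The spread of *SAUR15* lay mainly in the *yucca* mock and WT BR pairs, where replicate 1 was the higher array of each.

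*SAUR46* moved the other way, and more so in WT. It had 16.03 and 21.96 on the *yucca* BR arrays, against 65.3 and 67.2 on the *yucca* mock arrays. The WT values were 30.1 and 29.0 after BR, against 180.2 and 155 after mock treatment. Its log2 response was -1.82 ± 0.15 in *yucca*, where the BR level was 3.53-fold lower, and -2.50 ± 0.15 in WT, where it was 5.66-fold lower. Counted from the lowest response it stood at position 7 in WT and at position 29 in *yucca*. After BR its intensity was above that of 31.7% and 37.1% of all probe sets on the *yucca* arrays and of 33.2% and 33.1% on the WT arrays.

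**Figure D1:**
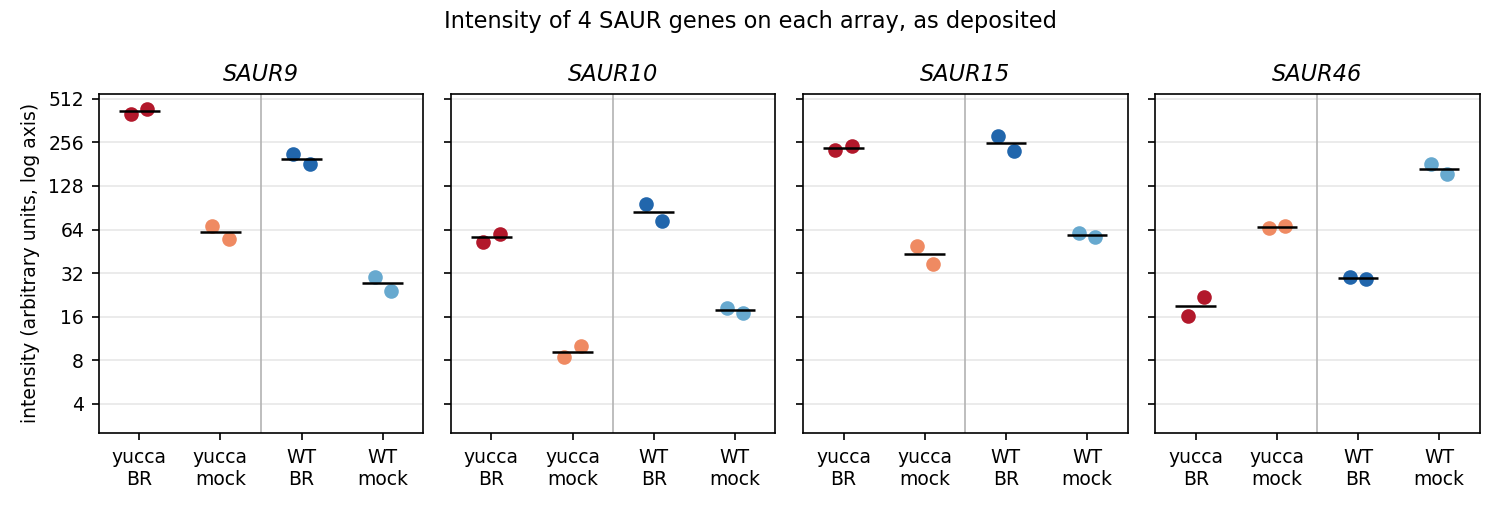
Intensity as deposited (arbitrary units, log axis) of *SAUR9*, *SAUR10*, *SAUR15* and *SAUR46* on each of 8 arrays, with points for arrays and bars for the mean of 2 arrays per group. The BR points lie above the mock points for *SAUR9*, *SAUR10* and *SAUR15* and below them for *SAUR46* in both genotypes. The *yucca* and WT sides of each panel appear to have been normalized separately.

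Set against each other, the responses of both genotypes were close for *SAUR9*, with a *yucca* minus WT difference of -0.08 ± 0.21 (SE) and a 95% interval of -0.56 to 0.39. For *SAUR10* the difference was 0.38 (interval -0.10 to 0.85) and for *SAUR15* it was 0.34 (interval -0.15 to 0.84). For *SAUR46*, whose responses were negative, it was 0.68 (interval 0.22 to 1.15), the response in *yucca* lying nearer to 0. After quantile normalization over all 8 arrays this difference was 0.46 for *SAUR46* and 0.66 for *SAUR10*. No test is given for these differences, since they hold the responses that chose the genes.

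Among the 24 other *SAUR* genes, most of those measured were also higher after BR. In *yucca*, 17 were called higher, 3 lower and 4 not called, and in WT 14 were called higher, none lower and 10 not called (limma, adjusted p under 0.10 and log odds B above 0). Of all probe sets, 3.42% were called in *yucca* (1.76% higher and 1.66% lower) and 2.15% in WT (1.21% higher and 0.945% lower). The median log2 response of the 24 genes was 1.26 in *yucca* and 0.82 in WT, beside -0.01 for all probe sets in WT and a median at 0 in *yucca*. The study's own lists of hormone-regulated genes are the only source of the name for 25 of the 28 *SAUR* probe sets, so the measured family leans toward responsive genes and is no independent evidence of their direction. The other *SAUR* genes named apart from the lists chosen on these arrays are ones the study did not call after BR in WT. They are thus no independent check either. Of these 8 genes, 4 were called higher and 1 lower in *yucca*, and 2 were called higher and none lower in WT. Leaving out any 1 WT array reduced the number of higher calls in WT among all 24 genes, and also among all probe sets. Leaving out *yucca* BR replicate 2 likewise reduced the number of lower calls in *yucca* among both. Such fits leave 1 array in a group.

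The highest responses next to those of *SAUR9*, *SAUR10* and *SAUR15* were in genes of tandem clusters, where near-identical copies could share probes. *SAUR68*, of the cluster that runs from *SAUR61* to *SAUR68*, had a log2 response of 2.44 ± 0.14 in *yucca* (limma adjusted p = 3.08e-05) and 2.21 ± 0.14 in WT (adjusted p = 7.64e-05). The WT response of *SAUR68* was thus above that of *SAUR15*, although *SAUR68* was not among the 4. After it came, in *yucca*, *SAUR16* (2.32), *SAUR27* (2.30), *SAUR65* (2.18) and *SAUR63* (2.14), and in WT *SAUR27* (1.54) and *SAUR63* (1.36). *SAUR46* had the lowest response of all 28 genes in both genotypes. Next in *yucca* came *SAUR36*, which had a log2 response of -1.35 ± 0.18 in *yucca* (adjusted p = 0.00212) and -0.67 in WT, where it was not called. *SAUR59*, with -1.29 in *yucca*, and *SAUR35*, with -0.63, were the other genes called lower in *yucca*, and neither was called in WT, where they had -0.71 and 0.00020. The difference of the BR response between genotypes was called for none of the 24 genes (adjusted p under 0.10 and B above 0 in limma), 16 of them having an unadjusted p under 0.05, as did 7.77% of all probe sets, and 0.0264% of all probe sets were called (0.00879% higher and 0.0176% lower in *yucca*). It was above 0, that is toward a higher value in *yucca*, for 20 of the 24 genes, with a median of 0.49, beside 0.01 for all probe sets. Most of the 24 genes are on lists chosen by the BR response in WT, which is part of this difference. Of the 8 genes named apart from those lists, 6 were above 0, with a median of 0.50. They are genes that the study did not call after BR in WT, which is a choice on the same response. They are thus no independent check of this difference either.

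**Figure D2:**
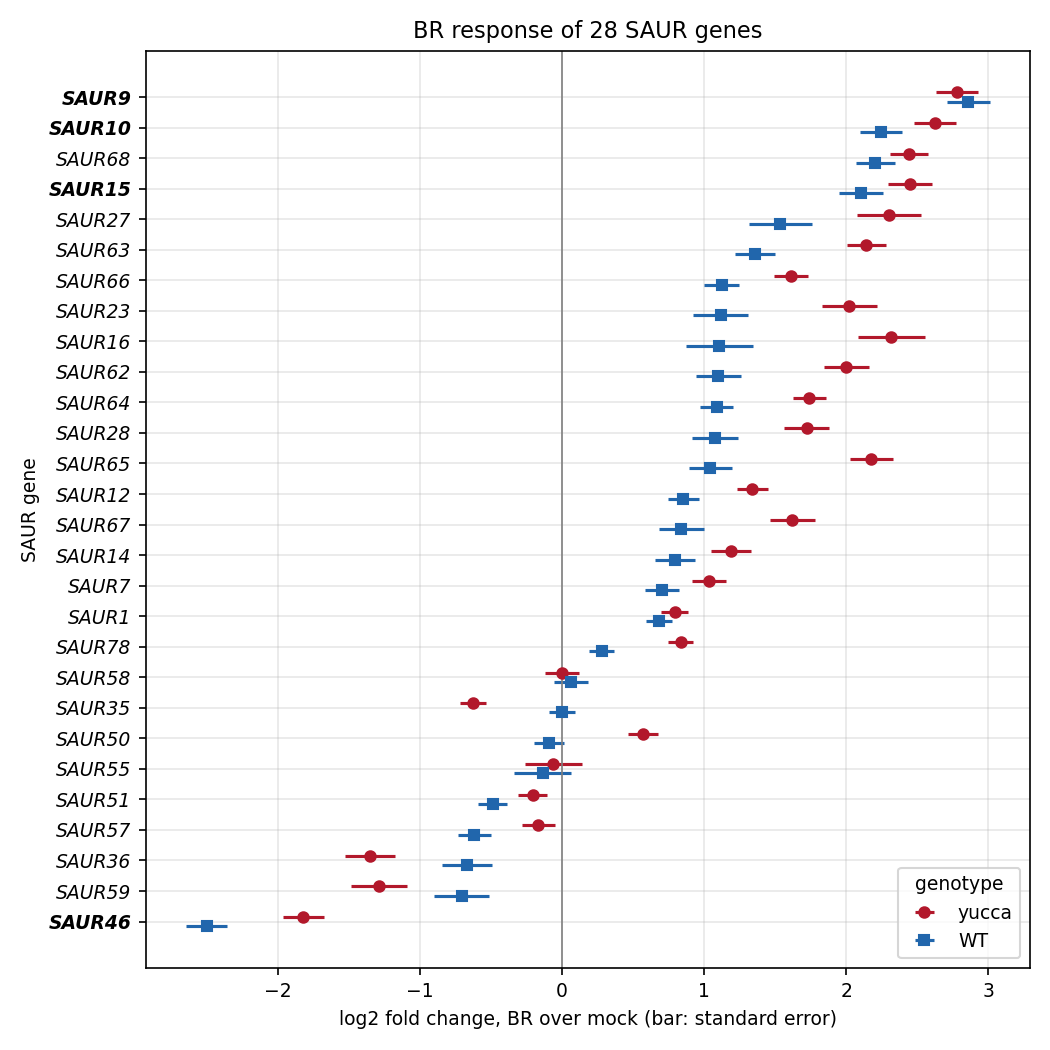
Log2 fold change of BR over mock (horizontal axis) of 28 *SAUR* genes in *yucca* (circles) and WT (squares), with bars for the standard error of the limma fit and the 4 genes described here in bold. *SAUR9* lies at the top with 2.78 in *yucca* and 2.86 in WT, and *SAUR46* at the bottom with -1.82 in *yucca* and -2.50 in WT.

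The genotype comparison was not named in the choice of the genes and was tested. Its p-values rest on the spread of the same arrays, and choosing clear BR responses may have favoured genes with a small spread. Averaged over BR and mock arrays, the estimate of *yucca* over WT is independent of those of the BR responses in this balanced design. The differences among mock arrays or among BR arrays share the WT arrays with the BR response in WT. The averaged fit takes the BR and mock arrays of a genotype as independent. Over all probe sets, deviations of same-numbered BR and mock arrays correlated at 0.41 in *yucca* and 0.23 in WT. If the numbers mark shared material, the averaged standard errors and p-values may be too small. *SAUR9* and *SAUR15* were called higher in *yucca*, and *SAUR10* and *SAUR46* were not called, in a comparison in which 27.6% of all probe sets were called and 13.4% were called higher.

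Of the 4 genes, *SAUR9* had the largest genotype difference. After quantile normalization it had 555 and 618 in BR-treated *yucca* against 155 and 127 in BR-treated WT, and 93.2 and 78.8 in mock-treated *yucca* against 22.8 and 19.0 in mock-treated WT. The highest WT array of each treatment was below the lowest *yucca* array. The log2 difference of *yucca* over WT averaged 2.05 ± 0.10 (SE, limma adjusted p = 6.12e-07), or 4.14-fold, and was at position 154 of 22746. It was 2.06 among BR arrays (adjusted p = 1.39e-05) and 2.04 among mock arrays (adjusted p = 1.09e-05), in comparisons that called 16.8% of all probe sets among BR arrays (8.26% higher and 8.56% lower) and 17.4% among mock arrays (8.56% higher and 8.79% lower). On the values as deposited, where the *yucca* arrays sit lower, the averaged difference was 1.14 and still called. The call was kept without any 1 of the 8 arrays, with averaged values of 1.97 to 2.12.

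For *SAUR15* the quantile-normalized intensities were 310 and 347 in BR-treated *yucca* against 207 and 158 in BR-treated WT, and 67.6 and 52.7 in mock-treated *yucca* against 43.3 and 41.1 in mock-treated WT. The arrays of the genotypes did not overlap under either treatment. The averaged log2 difference was 0.68 ± 0.11 (adjusted p = 0.000636), or 1.60-fold, with a B of 0.49, just above the threshold. Left without any 1 of 6 of the 8 arrays, B fell under 0 and the call was lost, at values from 0.58 (without WT BR replicate 2) over 0.59 (without *yucca* mock replicate 1), 0.64 and 0.72 (without *yucca* BR replicate 2 or 1) to 0.66 and 0.70 (without WT mock replicate 2 or 1). It was 0.86 among BR arrays (adjusted p = 0.00212) and 0.50 among mock arrays (adjusted p = 0.0266), neither of them called because B was below 0. On the values as deposited the averaged difference was -0.28, so the direction of *SAUR15* between genotypes rests on the normalization across them.

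*SAUR10* and *SAUR46* showed no genotype difference that passed the test. Quantile-normalized *SAUR10* had 73.9 and 85.9 in BR-treated *yucca* against 70.7 and 52.4 in BR-treated WT, and 11.0 and 12.3 in mock-treated *yucca* against 14.4 and 13.7 in mock-treated WT. It was thus slightly higher than WT with BR and slightly lower without it, with an averaged log2 difference of 0.06 (95% interval -0.17 to 0.29, limma adjusted p = 0.641). *SAUR46* had 21.1 and 28.9 in BR-treated *yucca* against 22.8 and 22.7 in BR-treated WT, and 89.4 and 96.3 in mock-treated *yucca* against 128 and 108 in mock-treated WT. Its averaged difference was -0.11 (95% interval -0.35 to 0.12, adjusted p = 0.374). Among mock arrays the differences were -0.27 for *SAUR10* (adjusted p = 0.163) and -0.34 for *SAUR46* (adjusted p = 0.0872), and among BR arrays 0.39 for *SAUR10* (adjusted p = 0.0564) and 0.12 for *SAUR46* (adjusted p = 0.550), none of them called. On the values as deposited both were called lower in *yucca*, at -0.995 averaged for *SAUR46* (adjusted p = 8.06e-06) and -0.77 for *SAUR10* (adjusted p = 5.98e-05), where 79.5% of all probe sets were called lower.

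**Figure D3:**
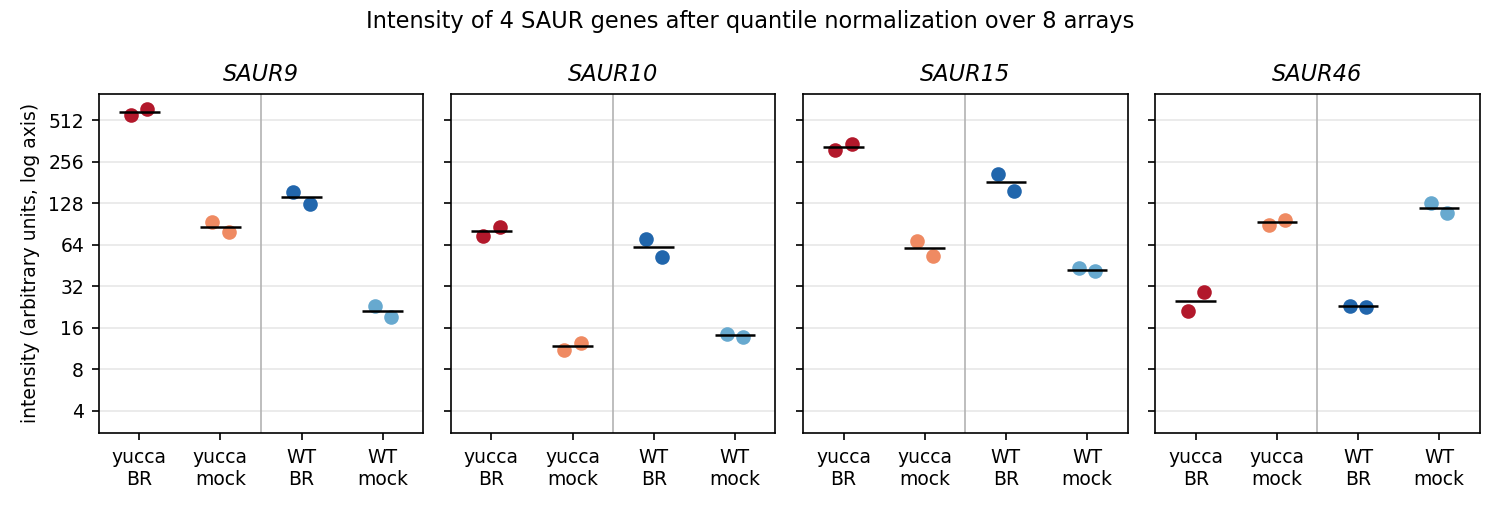
Intensity after quantile normalization over 8 arrays (arbitrary units, log axis) of the 4 genes, with points for arrays and bars for the mean of 2 arrays per group. *SAUR9* in *yucca* lies above WT under both treatments, and *SAUR46* after BR has *yucca* and WT arrays that overlap.

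**Figure D4:**
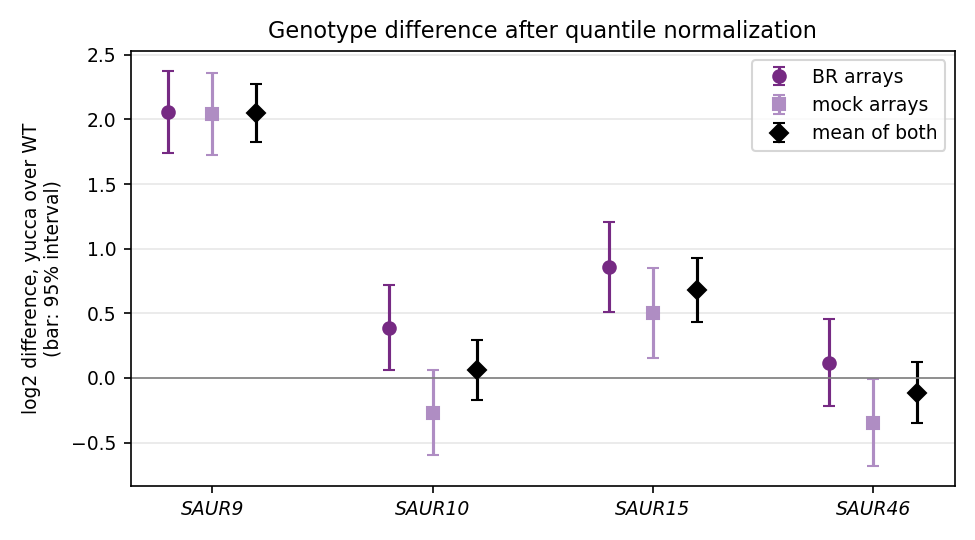
Log2 difference of *yucca* over WT (vertical axis) after quantile normalization for each of the 4 genes, among BR arrays, among mock arrays and as the mean of both, with bars for the 95% interval of the limma fit. The interval of the mean of both lies above 0 for *SAUR9* and *SAUR15* and spans 0 for *SAUR10* and *SAUR46*.

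Across the 4 groups the quantile-normalized levels of *SAUR9* and *SAUR15* fell into the same order, and those of *SAUR10* and *SAUR46* into others. *SAUR9* ran, from high to low, *yucca* BR (587 ± 44, SD, n = 2), WT BR (141 ± 20), *yucca* mock (86.0 ± 10.1) and WT mock (20.9 ± 2.7), with no overlap between neighbours. The gap between WT BR and *yucca* mock was 0.71 on the log2 scale, the smallest of the 3 gaps. In that order *SAUR15* had 328 ± 26, 183 ± 35, 60.1 ± 10.5 and 42.2 ± 1.5, and its arrays did not overlap between neighbours either. *SAUR10* had *yucca* BR highest (79.9 ± 8.4), then WT BR (61.5 ± 12.9), WT mock (14.1 ± 0.5) and *yucca* mock (11.7 ± 0.9). *SAUR46* had WT mock highest (118 ± 14), then *yucca* mock (92.8 ± 4.9), *yucca* BR (24.99 ± 5.54) and WT BR (22.8 ± 0.1). Only for *SAUR46* did neighbours overlap, in the 2 BR groups, and the genotype gaps of *SAUR10* and of *SAUR46* did not pass the test. How many of all probe sets lack overlap between groups was not counted, so the lack of overlap here and above is a description.

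Other differences between the genotypes stood beside that of *SAUR9*. Of the 5 root and root hair markers measured, 5 were below 0 for *yucca* over WT and 3 were called lower, namely *COBL9* (-0.73), which is needed for root hair growth, the root hair expansin gene *EXPA18* (-1.45) and the tonoplast aquaporin gene *TIP2;3* (-1.91). Of all probe sets, 14.2% were called lower. The names of 3 of the 5, *COBL9* and *TIP2;3* among them, come only from the study's list of genes lowered by auxin. The measured markers thus lean toward genes lowered by auxin. The summed intensity of the 5 markers was 396 to 685 on *yucca* BR arrays, 283 to 506 on *yucca* mock arrays, 1374 to 1488 on WT BR arrays and 1219 to 1439 on WT mock arrays. *RCA*, which encodes Rubisco activase, was the 1 green shoot marker of 8 measured. It had 11635 or 12010 on every array, values at the top of the distribution that quantile normalization sets, so they say nothing of shoot content. The ratio of 3′ to 5′ signal, which rises as RNA degrades, was 4.27 to 5.91 for actin on *yucca* arrays and 3.10 to 3.65 on WT arrays, and 1.46 to 1.86 for GAPDH on *yucca* arrays and 1.41 to 1.54 on WT arrays. Their part in the genotype differences was not tested.

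In the family, *SAUR9* had the highest averaged genotype difference of the 28 genes. Of the 24 others, 4 were called higher and 4 lower in *yucca* and 16 were not called, with a median of -0.12. Of all probe sets, whose median was -0.01, 13.4% were called higher and 14.2% lower, so both counts lie near those shares. The highest were *SAUR1* (1.43 ± 0.06, limma adjusted p = 3.89e-07), *SAUR12* (1.35 ± 0.08, adjusted p = 1.92e-06), *SAUR28* (0.97) and *SAUR67* (0.81), and the lowest *SAUR16* (-1.10 ± 0.17, adjusted p = 0.000423), *SAUR57* (-0.69), *SAUR7* (-0.53) and *SAUR58* (-0.48). On the values as deposited 1 was called higher and 17 lower, in a setting that called 1.37% of all probe sets higher and 79.5% lower. On the quantile-normalized values the count of lower calls was 1 or 2 without any 1 of WT mock replicate 1, WT BR replicate 1, *yucca* mock replicate 2 and either *yucca* BR replicate.

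*SAUR15* and its neighbours in gene order had BR responses above 0 and, after quantile normalization, genotype differences of unlike sign. *SAUR14*, next before it, had a log2 BR response of 1.19 ± 0.14 in *yucca* (limma adjusted p = 0.00132) and 0.79 ± 0.14 in WT (adjusted p = 0.0183), both called. *SAUR16*, next after it, had 2.32 ± 0.24 in *yucca* (adjusted p = 0.000599), which was called, and 1.11 ± 0.24 in WT (adjusted p = 0.0412), which was not, since B was below 0. Its averaged intensity as deposited was 237 ± 17 in BR-treated *yucca* and 49.6 ± 19.8 in mock-treated *yucca*, and 654 ± 73 in BR-treated WT and 304 ± 48 in mock-treated WT (SD, n = 2 each). Among mock arrays *SAUR16* was lower in *yucca* by a log2 difference of -1.70 ± 0.23 (adjusted p = 0.000453), while *SAUR15* had 0.50 and *SAUR14* had -0.67, neither called. Among BR arrays the values were 0.86 for *SAUR15*, -0.30 for *SAUR14* and -0.49 for *SAUR16*, none of them called. The unlike sign rests on the normalization across genotypes, since on the values as deposited *SAUR15* had -0.46 among mock arrays and -0.11 among BR arrays. Whether the 3 genes differ from each other was not tested.

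**Figure D5:**
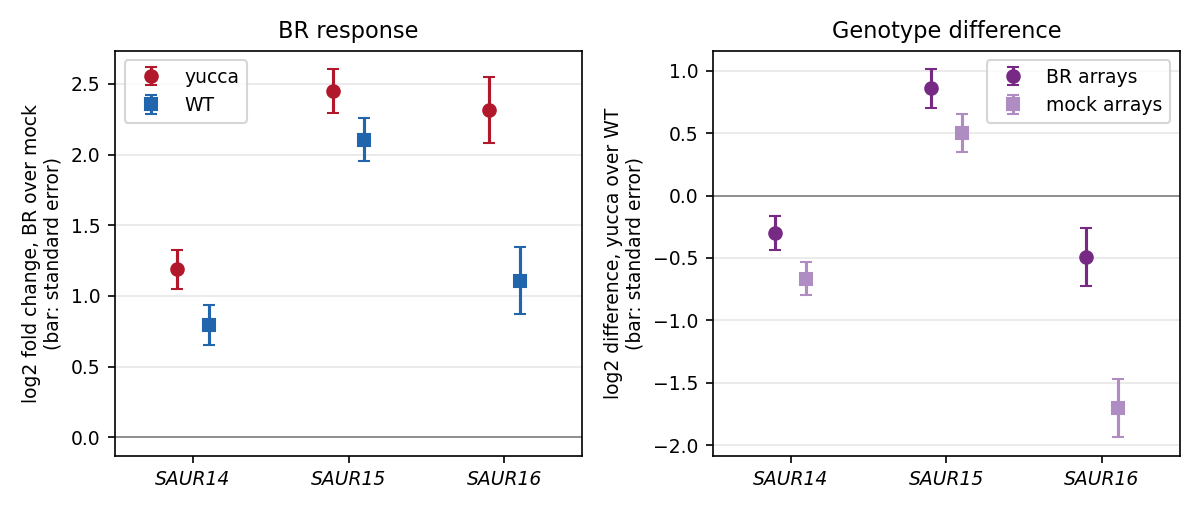
Log2 BR response in *yucca* and WT (left) and log2 difference of *yucca* over WT among BR arrays and among mock arrays after quantile normalization (right) of *SAUR14*, *SAUR15* and *SAUR16*, which follow each other in gene order, with bars for the standard error of the limma fit. All 3 genes have BR responses above 0, and on the right *SAUR15* lies above 0 and both neighbours below it.

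The other 3 genes have no *SAUR* gene with a named probe set among the 3 genes on either side. Both measured neighbours of *SAUR9* were called higher in *yucca* averaged over treatments after quantile normalization, where 13.4% of all probe sets were called higher. The nearer one, AT4G36105, had log2 BR responses of 0.64 in *yucca* and 0.23 in WT, neither called, and its genotype difference was 0.87 (limma adjusted p = 2.59e-05). Near *SAUR10*, AT2G17990 was called higher after BR in *yucca*, at 0.57 (adjusted p = 0.0105), and higher in *yucca* than in WT, at 0.82. As deposited, BR and mock means were 29.3 and 18.9 in *yucca* against 24.0 and 20.4 in WT for AT4G36105. For AT2G17990 they were 78.8 and 53.2 against 74.3 and 70.0. As deposited, both genes were higher in *yucca* than in WT with BR and lower without it. The size of both genotype differences thus rests on the normalization across genotypes, and the deposited values show no direction common to both treatments. The other measured neighbour of *SAUR9*, AT4G36140, had a genotype difference of 0.79. Its deposited BR and mock means were 75.9 and 98.2 in *yucca* against 100 and 95.1 in WT, so the same holds for it. Neither of the 2 measured neighbours of *SAUR46*, AT2G37020 and AT2G37050, was called after BR or between genotypes averaged over treatments.

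The genes whose pattern over the 8 arrays was most like that of each *SAUR* gene were sought among 2627 probe sets of a single gene with a range of at least 1 on the log2 scale. The measure was Pearson's r over the 8 arrays, which are the same arrays for all pairs, so that r is a description. Closest to *SAUR9* were *LGT9* (r = 0.996), which encodes a glycosyltransferase, *KCS20* (0.996), which encodes an enzyme of very-long-chain fatty acid synthesis, and *sks3* (0.991). *LGT9* and *KCS20* followed *SAUR9* with smaller changes, with log2 BR responses of 0.66 and 0.73 in *yucca* and 0.62 and 0.75 in WT, and averaged genotype differences of 0.47 and 0.61. Closest to *SAUR10* were *HMT-1* (0.994), which encodes a homocysteine methyltransferase, *XTH8* (0.991), of the xyloglucan-modifying enzymes of the wall, and AT4G27720 (0.988). Like *SAUR10*, *HMT-1* had averaged genotype differences near 0 (0.07) and log2 BR responses of 2.0 in *yucca* and 1.23 in WT. Closest to *SAUR15* were *GALS1* (0.994), which encodes a galactan synthase, *SAUR68* (0.992) and the expansin-like gene *EXLA2* (0.991), the last with log2 BR responses of 2.34 in *yucca* and 2.20 in WT. Closest to *SAUR46* were AT5G57780 (0.989), AT2G05790 (0.987) and AT5G57785 (0.979). AT5G57785 had lower BR responses than *SAUR46*, with log2 values of -4.45 in *yucca* and -4.43 in WT. Among the 4 genes themselves, r was highest between *SAUR10* and *SAUR15* (0.958) and lowest among the 3 induced genes between *SAUR9* and *SAUR10* (0.808), and *SAUR46* ran against the others, with r of -0.82 with *SAUR9*, -0.95 with *SAUR10* and -0.94 with *SAUR15*.

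The PP2C.D phosphatase genes, whose products SAUR proteins are known to inhibit, were for the most part not called. Of 9 such genes 6 were measured, with median log2 BR responses of 0.07 in *yucca* and 0.04 in WT. After BR in *yucca*, where 3.42% of all probe sets were called, *PP2C.D2* was called higher (0.45 ± 0.08, limma adjusted p = 0.0134) and *PP2C.D6* lower (-0.64 ± 0.11, adjusted p = 0.00904). In WT, where 2.15% of all probe sets were called, only *PP2C.D7* of the 6 was called, as lower (-0.91 ± 0.16, adjusted p = 0.0180). The probe set of *PP2C.D7* is named here only through the study's lists, among them the genes lowered by BR on these WT arrays. Its call in WT is therefore no independent evidence. After quantile normalization *PP2C.D4* was higher in *yucca* than in WT by 0.55 ± 0.07 averaged over treatments (limma adjusted p = 0.000142). It was the only call of the 6 genes in a comparison that called 27.6% of all probe sets. The difference is smaller in size than the median of -0.86 over all probe sets as deposited. Its direction may thus rest on the normalization across genotypes. The H+-ATPase genes of the AHA family were not analysed here.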

How the data were processed

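RNA of BR- and mock-treated *yucca* and WT seedlings was hybridized to 8 Affymetrix ATH1 arrays, 2 per group. The authors made the deposited intensity values with rma, a method that subtracts background, makes the distributions of jointly processed arrays alike and reduces probes to 1 value for each of 22810 probe sets, and the values are on the linear scale. Equal values between arrays numbered 1955 within WT and 1233 within *yucca* and 2 between genotypes, and so the genotypes appear to have been normalized separately. The median log2 difference of *yucca* over WT over all probe sets was -0.86 as deposited, -0.0084 after quantile normalization and 0.11 with equal array medians. The precision is limited by the number of arrays. Per-array sequencing depth does not apply.

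Tests ran without 64 control probe sets. Among those tested, 13484 have a single gene in the platform annotation, 503 several and 29 no locus, 485 were named by the tables of the study alone, and 8245 have no name here but were tested. *SAUR10* is named by the annotation, and *SAUR9*, *SAUR15* and *SAUR46* through the tables of the study. Locus names and gene order follow the RefSeq annotation of TAIR10.1. Promoter, protein and probe sequences were not analysed here, nor were AHA genes and floral markers.

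Group means of log2 values over all 8 arrays were estimated with limma 3.58.1 (R 4.3.3), leaving 4 residual degrees of freedom. Calls needed a Benjamini-Hochberg p under 0.10, adjusted over 22746 probe sets, together with B above 0, where limma was told to expect a share of 0.01 of genes to change. BR responses used the values as deposited, and genotype comparisons the quantile-normalized values. The fit was tested on simulated data. The 4 genes and all lists (*SAUR*, PP2C.D, AHA and marker genes) were chosen with earlier results of these data known. Named are the 4 genes, up to 4 called *SAUR* and PP2C.D genes per direction with the largest changes, neighbours in gene order, and for each of the 4 genes the 3 most correlated probe sets. Neighbours of *SAUR9*, *SAUR10* and *SAUR46* were added after the data were seen. Alternatives were an adjusted p under 0.05, the replicate number as a block, calls without B, only the groups compared, only probe sets above the median level, 16 added to each intensity, a variance trend, other normalizations, only *SAUR* genes named apart from lists chosen on these arrays, and leaving out each array.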

Additional observations from a re-analysis of the deposited data

How the results depend on the processing

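Over settings other than a left-out array, 131 values of the 4 genes kept their call or, where untested, moved by less than the spread of replicates, 11 moved by more, 8 reversed, 9 became called and 1 lost its call. The genotype difference of *SAUR9* kept its call on the values as deposited but was 1.14 averaged. Causes were not tested unless the setting itself gives them. With 16 added to each intensity the BR responses were 2.49 (*SAUR9*), 1.52 (*SAUR10*), 2.09 (*SAUR15*) and -1.24 (*SAUR46*) in *yucca* and 2.30, 1.57, 1.85 and -2.01 in WT, the difference of the response was 0.19 for *SAUR9* and -0.048 for *SAUR10*, both with the other sign, and the averaged genotype difference of *SAUR15* was 0.59 and not called. This setting called 2 other *SAUR* genes lower after BR in WT, and 1 lower in *yucca* than in WT averaged and 3 among mock arrays. Of all 22746 probe sets it called 238, 3019 and 1956 lower in these comparisons. On the values as deposited the genotype differences were -0.77 (*SAUR10*), -0.28 (*SAUR15*) and -0.995 (*SAUR46*, called) averaged, -0.96 (called), -0.46 and -1.34 (called) among mock arrays and -0.58, -0.11 and -0.65 among BR arrays, with 1 other *SAUR* gene called higher and 17 lower averaged, 0 and 14 among mock arrays, and 2 and 13 among BR arrays, where 79.5%, 67.5% and 67.5% of all probe sets were called lower. With array medians set equal *SAUR10* had 0.022 among mock arrays. After quantile normalization the difference of the response was 0.66 for *SAUR10*, 0.46 for *SAUR46* and 0.021 for *SAUR9*, the last with the other sign but within the spread of replicates.

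Without the B criterion *SAUR15* (0.50) and *SAUR46* (-0.34) were called among mock arrays and *SAUR10* (0.39) and *SAUR15* (0.86) among BR arrays. Of the other *SAUR* genes, 3 were then called lower after BR in WT, as were 2.01% of all probe sets. Averaged over treatments in *yucca* against WT, 7 were called higher and 9 lower, beside 32.2% and 33.6% of all probe sets. The counts were 5 and 11 among mock arrays (25.9% and 27.6%) and 11 and 8 among BR arrays (26.0% and 27.2%). A variance trend called *SAUR15* among BR arrays (0.86) and 7 other *SAUR* genes lower averaged, beside 3441 of all 22746 probe sets. Fits of only the groups compared called 3 other *SAUR* genes lower after BR in WT, 1 lower after BR in *yucca* and 3 lower in *yucca* among mock arrays. Of all 22746 probe sets these fits called 297, 184 and 1475 lower. Only probe sets above the median level gave 2 lower averaged and 3 lower among mock arrays, beside 1887 and 1202 of all probe sets above that level. The *SAUR* genes named apart from lists chosen on these arrays gave 4 higher and 1 lower after BR in *yucca*, 2 higher after BR in WT, 1 higher and 2 lower in *yucca* averaged, 0 and 1 among mock arrays and 1 higher among BR arrays. These are genes that the study did not call after BR in WT.

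Deviations of same-numbered arrays from their group means correlated at 0.41 between the treatments of *yucca* and 0.23 between those of WT, and at -0.07 to -0.12 between genotypes, so the numbers may pair BR with mock within a genotype but not *yucca* with WT, and no source says what they mark. A block by replicate number takes 1 effect for both genotypes, so it does not account for a pairing within each. With the replicate number as a block, *SAUR15* was called among BR arrays (0.86, limma adjusted p = 0.00167) and 1 other *SAUR* gene had a called difference of the response. Over all probe sets the block left 386 called higher and 377 lower after BR in *yucca*, against 401 and 377 without it, and 272 and 220 in WT, against 275 and 215, and called 7 and 16 for the difference of the response, against 2 and 4.

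Leaving out 1 array gave BR responses of 2.24 to 2.66 (*SAUR15*) and -2.05 to -1.59 (*SAUR46*) in *yucca* and 2.05 to 2.45 (*SAUR10*) in WT. The difference of the response was -0.24 to 0.08 (*SAUR9*), 0.18 to 0.58 (*SAUR10*), 0.14 to 0.55 (*SAUR15*) and 0.45 to 0.91 (*SAUR46*). Averaged genotype differences were -0.049 to 0.17 (*SAUR10*, below 0 without WT BR replicate 2), 0.58 to 0.78 (*SAUR15*) and -0.23 to 0.0015 (*SAUR46*, above 0 without *yucca* BR replicate 1), and among mock arrays 0.32 to 0.69 (*SAUR15*), and among BR arrays 0.17 to 0.60 (*SAUR10*), 0.66 to 1.05 (*SAUR15*) and -0.11 to 0.35 (*SAUR46*, below 0 without *yucca* BR replicate 2). Counts of other *SAUR* genes were 6 to 14 higher and 0 to 1 lower after BR in WT, 1 to 3 lower after BR in *yucca*, 1 to 5 lower in *yucca* averaged and 0 to 7 among mock arrays, and 0 to 1 higher for the difference of the response.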
